A study of Mus musculus with 4 samples.

Results

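A set of 42 genes of the primary cilium was followed in RNA sequencing libraries from embryonic mouse forelimbs of 2 genotypes, wild type and Shh null. The set was given as a list of gene names, covering the transport machinery of the cilium and the gate at its base, and a member had to reach 1 CPM (read counts scaled to library size with TMM factors) in 2 or more libraries. All 42 listed names met this, out of 17712 genes in the deposited table, and none lay near the limit, since the lowest value of any member in any library was 3.51 CPM. Each genotype had 2 libraries, which the study's design text calls technical replicates. No label ties them to separate animals, so the spread behind each p-value may not include that between animals. For a single value, the smallest two-sided p of an exact permutation test is 0.333 here. Both groups were Swiss Webster embryos, an outbred stock, with 33 to 35 somites, and the series title calls them littermates. The age label gives E10.25 and the source label E10.5 as the embryonic stage. Shh encodes Sonic hedgehog, and the labels do not describe the null allele or the number of embryos behind a library. The libraries held between 18456502 and 29620468 reads assigned to genes. A member had between 88 and 3972 reads in a library.

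The primary cilium is a single, immotile, microtubule-based projection of most vertebrate cells. Kinesin motors carry intraflagellar transport (IFT) trains from its base to its tip and a dedicated dynein carries them back. The IFT-B complex is needed mainly for the outward journey, and the IFT-A complex for the return and for the entry of membrane proteins. The BBSome, an assembly of Bardet-Biedl syndrome proteins, rides on the trains as a cargo adaptor, and the transition zone at the base acts as a diffusion barrier. Vertebrate hedgehog signalling passes through this organelle: the receptor Patched and the transducer Smoothened move in and out of it, and the Gli transcription factors are processed there. Loss of many of these genes in mice or people gives digit and skeletal defects. The comparison asks how far transcripts for this machinery differed in forelimbs without the ligand.

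The targeted gene and tissue markers were examined first. Shh had wild-type values of 11.4 and 7.88 CPM and Shh null values of 3.15 and 2.42 CPM, a log2 fold change of −1.47 (95% interval −1.93 to −1.02, adjusted p = 0.00615), so transcript was lower but still counted in the Shh null libraries, and the labels do not say which exons the allele lacks. The forelimb gene Tbx5 had wild-type values of 65.0 and 61.5 CPM and Shh null values of 80.2 and 65.0 CPM, and the hindlimb gene Pitx1 did not exceed 0.458 CPM. Erythroid markers set wild type 1 apart, summing to 11000 CPM there against 2943 to 6338 CPM in the other 3 libraries (0 of 6 called). Macrophage markers summed to 11.4 CPM at most in wild type and to 21.1 and 18.9 in Shh null (1 of 5 tested, Cx3cr1, was called higher). Surface ectoderm markers summed to 348 and 327 CPM in wild type and 380.3 and 399.9 CPM in Shh null. For ectoderm, endothelium, muscle and nerve, 0 of 8, 7, 3 and 4 tested markers were called, where 2.48% of all tested genes were. The log2 fold change was positive for 7, 4, 2 and 1 of them, and for 49.9% of all tested genes. Of 12 genes of motile cilia in the table, 8 stayed under 1 CPM in all libraries, and the 12 summed to 18.5 and 17.9 CPM in wild type and 22.1 and 20.5 CPM in Shh null. The listed markers Hba-a1 and Mcidas had no row in the deposited table, which held no gene at 0 in all libraries.

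No cilium gene of the set passed the test between the genotypes. With limma across 13224 tested genes and Benjamini-Hochberg adjustment, 0 of the 42 were called at an adjusted p under 0.05, where 2.48% of all tested genes were called (1.24% higher and 1.24% lower in Shh null). The same 0 came from edgeR's quasi-likelihood test and from DESeq2 on the recovered reads (2.45% and 3.98% of all tested genes called), where 5 and 4 members had an unadjusted p under 0.05. In limma, 5 members had an unadjusted p under 0.05, all higher in Shh null (Kifap3, Ift172, Ift140, Ofd1 and Tulp3), and 0 were lower, against 9.5% and 9.02% of all tested genes in the 2 directions. This count depended on single libraries. It fell when wild type 1, Shh null 1 or Shh null 2 was left out and rose without wild type 2. The lowest adjusted p of a member was 0.0941, for Kifap3. Fold changes below are log2 values of Shh null over wild type on the scale of log2(CPM + 1), with 95% intervals from the limma fit.

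The differences were small, and most pointed the same way. The fitted log2 fold change was positive for 34 of the 42 members (81.0%, against 49.9% of all tested genes) and negative for 8. It ran from −0.18 for Bbs5 to 0.41 for Ift172, with a median of 0.11 where the median over all tested genes was −0.0005. In linear terms, the ratio of mean CPM lay between 0.877 and 1.37. For 40 of the 42 members (95.2%) the whole 95% interval lay within 1.5-fold either way, a width met by 69.2% of all tested genes. The exceptions were Ift172 and Tulp3, whose upper bounds were 0.70 and 0.77. The 2 shares were not matched for level. The median level was 35.7 CPM for the members and 26.4 CPM for all tested genes. The median interval reached 0.27 and 0.30 either side, and its width may not include the spread between animals. The members were chosen with results of these data known, and their values share the same 4 libraries, so the count of positive signs is a description and has no test. Left out in turn, the libraries gave between 31 and 36 positive members and a median between 0.091 and 0.14.

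**Figure D1:**
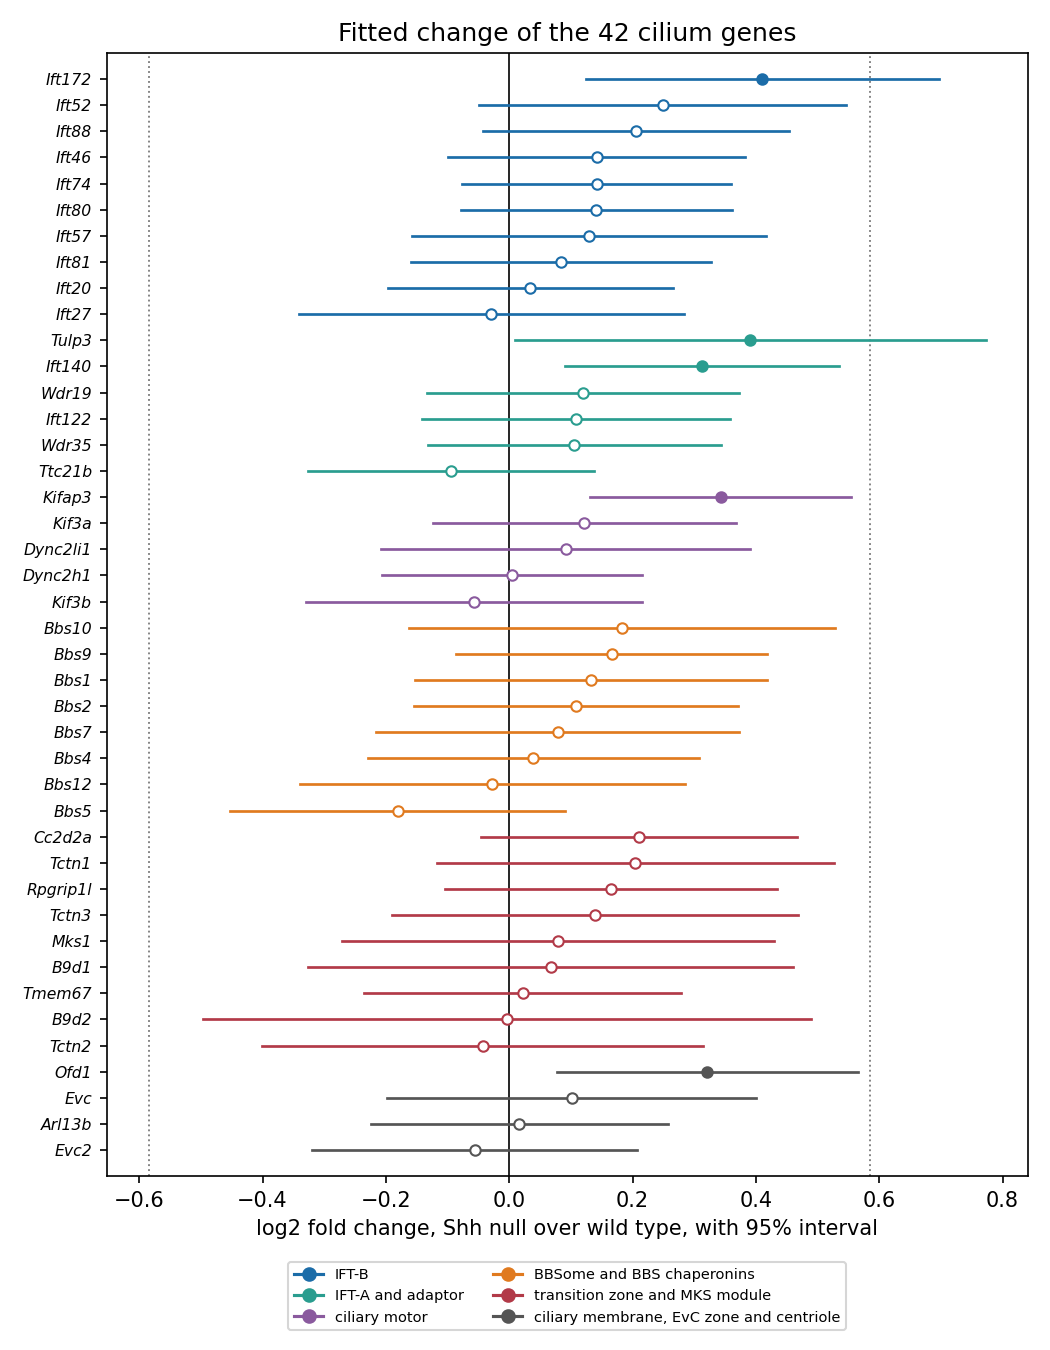
Fitted log2 fold change of each of the 42 cilium genes (x axis, Shh null over wild type, log2(CPM + 1) scale) with its 95% limma interval (line), coloured by role, with filled points for an unadjusted p under 0.05 and dotted lines at 1.5-fold either way. Most points (34) lie right of 0, and only the intervals of Ift172 and Tulp3 extend past the right dotted line.

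Both Shh null libraries lay above both wild-type libraries for 22 of the 42 members (52.4%, with 25.1% of all tested genes in this position) and below both for 2, Ttc21b and Bbs5 (25.0% of all tested genes). For the other 18 members the groups overlapped. The difference between the genotype means was larger than the difference between the libraries of either group for 18 of the 42 (42.9%), near the 37.8% of all tested genes. Summed over the 42 members, the libraries held 1722 and 1775 CPM in wild type and 1936 and 1901 CPM in Shh null, a ratio of 1.10. The summed values of the groups did not overlap. Those of all tested genes did not overlap either and lay the other way, with a ratio of 0.946. They were 1038000 and 1016000 CPM in wild type and 961100 and 981700 CPM in Shh null. Of 8 limb mesenchyme markers, 5 were called, all higher in Shh null (Prrx1, Prrx2, Twist1, Lhx2 and Lhx9). Meox2 lay on the other side without being called (log2 fold change −0.48, adjusted p = 0.201), and Tbx5 overlapped between the groups. The list summed to 1126 and 1137 CPM in wild type and 1641 and 1593 CPM in Shh null, a ratio of 1.43. Their part in the cilium values was not tested, and in whole tissue more cells of a type and more RNA per cell cannot be told apart.

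The transcripts differed more between genes than between genotypes. Divided by the exon length of the gene in GENCODE, the mean level over the 4 libraries ran from 0.644 CPM per kilobase for Tulp3 to 54.0 for Ift74, an 83.9-fold range with a median of 6.50. Ift74 (54.0), Ift20 (44.0), Kifap3 (31.2), Ift46 (21.7) and Kif3a (17.7) were the 5 most abundant per kilobase. The median per kilobase was 10.7 for IFT-B genes, 8.68 for the motor genes, 6.01 for the BBSome group, 4.56 for IFT-A genes with Tulp3, and 3.03 for the transition zone genes, whose highest member, B9d1, reached 5.41. The exon length is the union over all annotated transcripts, which lowers the value of genes with long alternative exons.

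**Figure D2:**
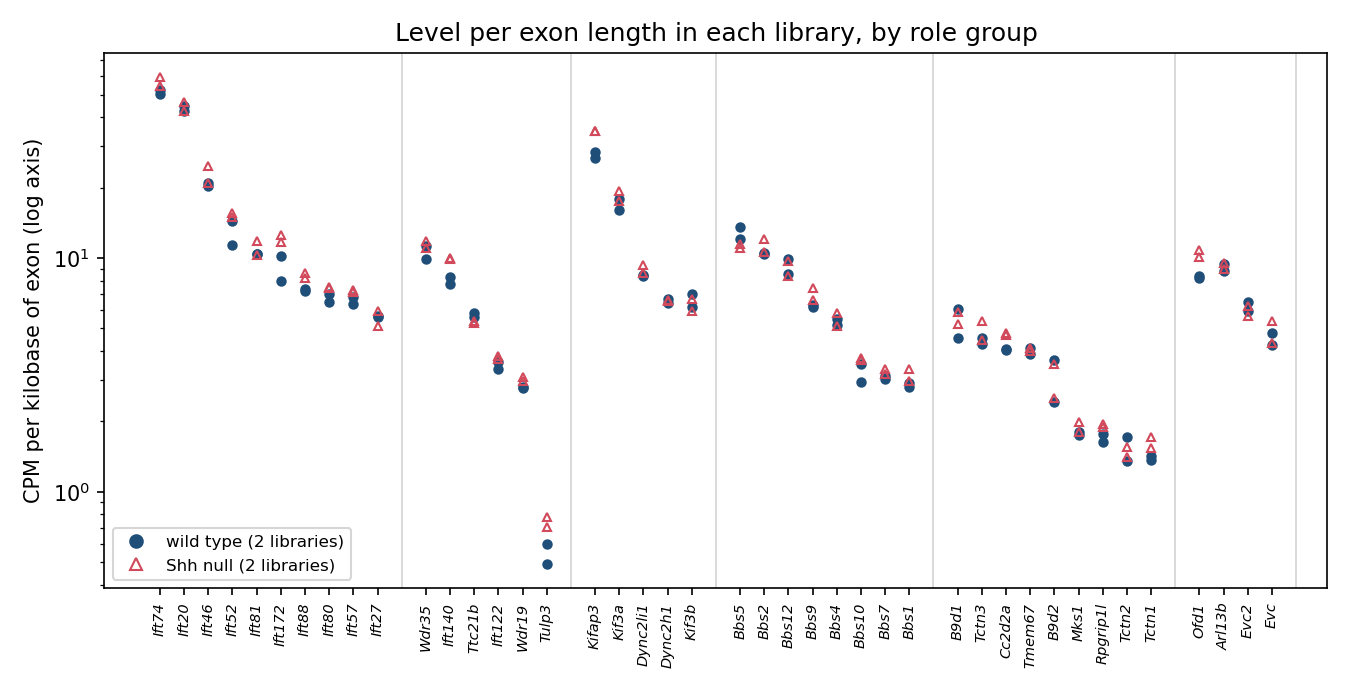
Level of each cilium gene in each library (log axis, CPM per kilobase of exon), with circles for the 2 wild-type and triangles for the 2 Shh null libraries, and genes ordered from left to right as IFT-B, IFT-A with Tulp3, motors, BBSome with chaperonins, transition zone, and ciliary membrane, EvC zone and centriole. The 4 points of a gene lie close together, while the means of the genes range from 0.644 (Tulp3) to 54.0 (Ift74).

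The promoters of the members were searched for sequences that their choice did not use. RFX transcription factors, which switch on cilium genes, bind the X-box, an inverted repeat with the arm GTTGCC. RefSeq promoters (GRCm38.p6, 250 bases before to 50 after a start) were found for 37 of the 42 members, with 38 starts. The arm GTTGCC, on either strand, stood in 19 of the 38 (50.0%), against 12.5% of all 32851 promoters, 12.4% of the promoters of tested genes and 26.4% of those of other cilium genes. The longer pattern, GTTNCC and GGNAAC with NN between them, where N is any base, stood in 3 of the 38 (7.89%, against 0.451% of all promoters, 0.532% of those of tested genes and 4.4% of those of other cilium genes), and each of these 3 matches begins with the shorter arm, so the searches overlap. Of other elements, GCGCA and GCGC with N between them, bound by NRF1, stood in 18.4% (4.6% of all promoters, 9.66% of those of tested genes and 16.5% of those of other cilium genes), and TGACGTCA, the cyclic AMP response element, in 2.63% (1.79% of all, 2.98% of those of tested genes and 1.1% of those of other cilium genes). GACCACCCA, a sequence bound by Gli factors, was found in 0 of the 38 windows (0.253% of all, 0.226% of those of tested genes and 1.1% of those of other cilium genes). With so rare a sequence, 0 in 38 windows does not set the members apart. A match is a description of letters and not a measured binding site. The median log2 fold change was 0.10 for the 19 members with the arm and 0.14 for the 18 without it.

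The stretches below are a selection, the 3 long matches and 1 match each for a few transport genes, and other matches among the members are not shown. They read 5′ to 3′ on the strand of the gene, with the matched bases in capitals. Those of Bbs7, Mks1 and Tctn1 carry the long pattern, those of Ift172 and Kif3a the arm, that of Ift140 the arm in reverse complement, and that of Kifap3 the NRF1 sequence.
Bbs7, chr3:36613474-36613533, minus strand: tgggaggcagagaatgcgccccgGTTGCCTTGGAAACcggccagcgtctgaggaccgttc
Mks1, chr11:87853155-87853214, plus strand: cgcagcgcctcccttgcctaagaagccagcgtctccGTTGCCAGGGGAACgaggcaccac
Tctn1, chr5:122264411-122264440, minus strand: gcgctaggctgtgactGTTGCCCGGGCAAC
Ift172, chr5:31291097-31291126, minus strand: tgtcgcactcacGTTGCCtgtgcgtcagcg
Ift140, chr17:25015950-25016009, plus strand: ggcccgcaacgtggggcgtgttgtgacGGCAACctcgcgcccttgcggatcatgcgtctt
Kif3a, chr11:53567244-53567303, plus strand: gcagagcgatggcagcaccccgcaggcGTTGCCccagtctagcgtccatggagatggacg
Kifap3, chr1:163779577-163779606, plus strand: tgtcgcgtgaGCGCATGCGCcttgcggaga
Counted from the RefSeq start base as 1, the capitals in Bbs7 begin at −121, those in Mks1 at −24 and those in Ift172 at 1.

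Of the 10 IFT-B genes, 0 were called, 9 had a positive log2 fold change and 6 had both Shh null libraries above both wild-type libraries. Ift172, which encodes a large peripheral subunit that takes part in the turnaround of trains at the tip, had the largest log2 fold change of the 42 members on the log2(CPM + 1) scale, while Tulp3 had the larger ratio of mean CPM (1.37 against 1.33) and the larger value with a pseudocount of 0.25, edgeR and DESeq2. Ift172 had wild-type values of 52.9 and 67.7 CPM and Shh null values of 82.7 and 77.1 CPM. Both Shh null values were higher, but the wild-type libraries also differed widely from each other. The means of 60.3 ± 10.4 and 79.9 ± 3.94 CPM (SD, n = 2) gave a log2 fold change of 0.41 ± 0.13 (SE; 95% interval 0.12 to 0.70, limma adjusted p = 0.132). Without wild type 2, the wild-type library with the higher value, Ift172 was called (0.58, adjusted p = 0.00745), in a fit that also called 6.06% of all tested genes. Without wild type 1, its log2 fold change was 0.24 (adjusted p = 0.503), and leaving out Shh null 1 or Shh null 2 gave 0.36 or 0.46 (0.542 and 0.221). Ift172 lies at chr5:31253277-31291116 on the minus strand (mm10), 2.79 Mb from Shh, and is the member nearest to the mutated locus. Of 82 tested genes within 5 Mb of Shh, with Ift172 among them and Shh left out, 4.88% were called (2.48% of all tested genes). Their median log2 fold change was −0.0063. Within 10 Mb, 5.44% of 147 tested genes were called. The part of the position near Shh in the Ift172 difference was not tested.

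The other IFT-B genes lay closer together. Ift74, whose product binds tubulin together with that of Ift81, had wild-type values of 139 and 133 CPM and Shh null values of 144 and 157 CPM, and the difference was 0.14 (95% interval −0.076 to 0.36, adjusted p = 0.473). Its groups did not overlap, though its Shh null libraries were nearly as far apart as the genotype means. Ift81 had wild-type values of 60.5 and 60.9 CPM and Shh null values of 60.1 and 69.0 CPM, so the Shh null values lay on both sides of the wild-type pair (log2 fold change 0.084, 95% interval −0.16 to 0.33, adjusted p = 0.721). Ift88, also known as Polaris and needed for cilium assembly, had wild-type values of 33.3 and 34.1 CPM and Shh null values of 38.1 and 39.9 CPM (log2 fold change 0.21, 95% interval −0.042 to 0.45, adjusted p = 0.355), with close agreement within each group. Ift52, a scaffold of the IFT-B core, had wild-type values of 31.8 and 40.5 CPM and Shh null values of 43.6 and 42 CPM (log2 fold change 0.25, 95% interval −0.049 to 0.55, adjusted p = 0.353), and its wild-type libraries differed by more than the genotypes did. Ift46, another core subunit, had wild-type values of 129.7 and 135 CPM and Shh null values of 159 and 134 CPM (log2 fold change 0.14, 95% interval −0.10 to 0.38, adjusted p = 0.517), where only the first Shh null library stood apart. Ift80 and Ift57, peripheral subunits, had log2 fold changes of 0.14 and 0.13 (adjusted p = 0.48 and 0.63) without overlap between the groups. Ift20, whose protein also sits at the Golgi and helps to sort ciliary membrane cargo, had wild-type values of 68.1 and 64.6 CPM and Shh null values of 70.8 and 65.1 CPM, with groups that interleaved (log2 fold change 0.034, 95% interval −0.20 to 0.26, adjusted p = 0.894). Ift27, a small GTPase that works with the BBSome in clearing cargo from the cilium, had wild-type values of 16.1 and 16.1 CPM and Shh null values of 16.9 and 14.7 CPM, and was the 1 member of this complex with a negative value (log2 fold change −0.029, 95% interval −0.34 to 0.28, adjusted p = 0.938).

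The IFT-A genes and their adaptor Tulp3 included 2 of the 5 members with an unadjusted p under 0.05, and 0 of the 6 were called. Ift140, a core IFT-A subunit at chr17:25016085-25099495, had wild-type values of 64.3 and 68.9 CPM and Shh null values of 83.2 and 82.6 CPM. Each Shh null value exceeded each wild-type value, and the libraries of a group agreed closely. The means of 66.6 ± 3.26 and 82.9 ± 0.407 CPM (SD, n = 2) differed by a log2 fold change of 0.31 ± 0.10 (SE; 95% interval 0.091 to 0.54, limma adjusted p = 0.137). Tulp3 encodes a tubby-family protein that brings receptors into the cilium with IFT-A and restrains hedgehog signalling. It had wild-type values of 4.6 and 5.56 CPM and Shh null values of 6.59 and 7.32 CPM, the lowest level per kilobase of the set. The groups did not overlap, and the log2 fold change was 0.39 ± 0.17 (SE; 95% interval 0.0094 to 0.77, limma adjusted p = 0.26).

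Wdr19 and Wdr35, subunits of the same complex, had log2 fold changes of 0.12 and 0.11 (adjusted p = 0.613 and 0.637), and Ift122 one of 0.11 (0.644). Wdr19 had wild-type values of 31.2 and 31.6 CPM and Shh null values of 35.0 and 33.4 CPM, a gap of a few CPM that was larger than that between libraries of a group. Wdr35, the most abundant of the complex per kilobase, had wild-type values of 72.3 and 81.9 CPM and Shh null values of 85.6 and 80.2 CPM, and its groups overlapped. Ttc21b, a peripheral IFT-A subunit whose loss raises hedgehog output in mice, lay on the other side. Ttc21b had wild-type values of 51.7 and 54.2 CPM and Shh null values of 49.1 and 50.0 CPM, with both Shh null values lower (log2 fold change −0.094, 95% interval −0.33 to 0.14, adjusted p = 0.671).

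Among the 5 motor genes, Kifap3 had the lowest adjusted p of all members, and 0 were called. Kifap3 encodes the accessory subunit that joins the kinesin heavy chains Kif3a and Kif3b into the motor of outward transport. It lies at chr1:163779583-163917109 and had wild-type values of 107 and 114 CPM and Shh null values of 139 and 141 CPM. The Shh null libraries agreed closely and lay above both wild-type libraries. The means of 110.2 ± 4.61 and 140.0 ± 0.845 CPM (SD, n = 2) gave a log2 fold change of 0.34 ± 0.09 (SE; 95% interval 0.13 to 0.55, limma adjusted p = 0.0941). The kinesin heavy chains did not share this pattern. Kif3a had wild-type values of 57.6 and 64.0 CPM and Shh null values of 69.6 and 62.8 CPM (log2 fold change 0.12, 95% interval −0.12 to 0.37, adjusted p = 0.593), and Kif3b had wild-type values of 34.9 and 39.3 CPM and Shh null values of 33.5 and 37.8 CPM (log2 fold change −0.057, 95% interval −0.33 to 0.22, adjusted p = 0.846), with overlapping groups in both. Dync2h1, the heavy chain of the dynein that returns trains to the base, was nearly the same in all libraries. It had wild-type values of 105 and 109 CPM and Shh null values of 107 and 108 CPM (log2 fold change 0.0052, 95% interval −0.21 to 0.22, adjusted p = 0.984). Dync2li1, its light intermediate chain, had wild-type values of 15.8 and 15.6 CPM and Shh null values of 16.2 and 17.4 CPM (log2 fold change 0.092, 95% interval −0.21 to 0.39, adjusted p = 0.76).

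**Figure D3:**
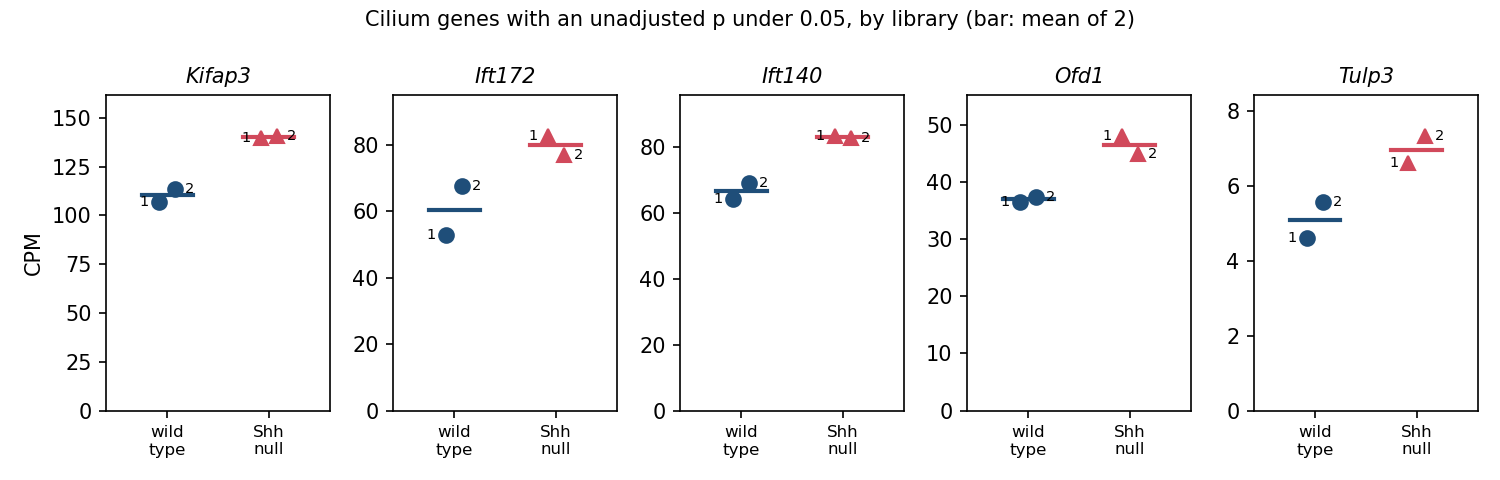
CPM in each library (y axis from 0) for the 5 cilium genes with an unadjusted p under 0.05, with circles for wild type, triangles for Shh null, numbers for the library within a group and a bar at the mean of 2 libraries. In all 5 genes both Shh null points lie above both wild-type points. The genes were picked by this p from the same libraries, a choice that favours such separation.

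The BBSome genes and their chaperonins had the smallest summed difference of the 6 role groups. Over the 8 genes, the sums were 213.6 and 202 CPM in wild type and 219 and 215 CPM in Shh null, a ratio of 1.04. Of the 8, 0 were called, 6 were positive and 2 negative, and every 95% interval lay within 1.5-fold. Bbs9, a BBSome core subunit, had wild-type values of 39.3 and 38.5 CPM and Shh null values of 46.4 and 41.4 CPM (log2 fold change 0.17, 95% interval −0.087 to 0.42, adjusted p = 0.467). The largest positive value was that of Bbs10, a chaperonin-like protein needed to assemble the complex. Its transcript had wild-type values of 10.8 and 8.98 CPM and Shh null values of 11.4 and 11.2 CPM (log2 fold change 0.18, 95% interval −0.16 to 0.53, adjusted p = 0.569), but its wild-type libraries differed by more than the genotypes. Bbs5, a lipid-binding subunit, was on the opposite side and had the most negative value of the 42 members. Bbs5 had wild-type values of 33.1 and 29.4 CPM and Shh null values of 26.9 and 27.9 CPM, with both Shh null values lower (log2 fold change −0.18, 95% interval −0.45 to 0.091, adjusted p = 0.461). Bbs1, Bbs2 and Bbs7, which also belong to the BBSome, had log2 fold changes of 0.13, 0.11 and 0.079 (adjusted p = 0.621, 0.667 and 0.794), with the second Shh null library only just above the wild-type pair for Bbs2 (35.0 against 34.8 CPM). Bbs4 and the chaperonin-like Bbs12 overlapped between the groups, at 0.039 and −0.027 (0.895 and 0.943).

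The transition zone genes, 9 in number, were the least abundant group per kilobase, and 0 were called. Of these, 7 had a positive and 2 a negative log2 fold change, and every interval lay within 1.5-fold. Cc2d2a, a scaffold of the zone, had wild-type values of 27.9 and 27.6 CPM and Shh null values of 31.9 and 32.5 CPM. The libraries of a group differed by less than 1 CPM, and the groups lay several CPM apart (log2 fold change 0.21 ± 0.11, SE, 95% interval −0.045 to 0.47, limma adjusted p = 0.358). Rpgrip1l, which anchors the zone's other modules, had wild-type values of 25.9 and 24.0 CPM and Shh null values of 28.5 and 27.7 CPM, without overlap (log2 fold change 0.16, 95% interval −0.10 to 0.43, adjusted p = 0.502). The Tectonic genes encode related proteins of the zone. Tctn1 had wild-type values of 11.8 and 11.3 CPM and Shh null values of 14.2 and 12.7 CPM (log2 fold change 0.20, 95% interval −0.12 to 0.53, adjusted p = 0.484). Its exons overlap those of Hvcn1 and of the processed pseudogene Gm15481, both on the opposite strand. The larger of these overlaps spans 1574 bases, so reads may be shared. Tctn3 and Tctn2 overlapped between the groups, at 0.14 and −0.043 (adjusted p = 0.657 and 0.917).

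The B9-domain proteins Mks1, B9d1 and B9d2 form a small complex of the zone, and their genes had few reads. Mks1 had wild-type values of 7.09 and 7.27 CPM and Shh null values of 7.30 and 8.01 CPM (log2 fold change 0.08, 95% interval −0.27 to 0.43, adjusted p = 0.829). B9d1 had wild-type values of 9.65 and 7.22 CPM and Shh null values of 8.29 and 9.33 CPM (log2 fold change 0.067, 95% interval −0.33 to 0.46, adjusted p = 0.878), with the wild-type libraries on either side of the Shh null pair. B9d2, with 88 to 112 reads a library, had the widest interval of the set. It had wild-type values of 3.51 and 5.34 CPM and Shh null values of 3.65 and 5.12 CPM (log2 fold change −0.0034, 95% interval −0.50 to 0.49, adjusted p = 0.995), where the second library of each group was the higher. Tmem67, the membrane protein meckelin, had wild-type values of 30.1 and 31.8 CPM and Shh null values of 31.1 and 31.9 CPM and was close to level (log2 fold change 0.022, 95% interval −0.23 to 0.28, adjusted p = 0.944).

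Arl13b, Evc, Evc2 and Ofd1 act in the ciliary membrane, in the EvC zone just above the gate and at the centriole. Arl13b, a small GTPase of the ciliary membrane needed for normal Smoothened traffic, had wild-type values of 47.9 and 45.0 CPM and Shh null values of 45.5 and 48.4 CPM, with interleaved groups (log2 fold change 0.017, 95% interval −0.22 to 0.26, adjusted p = 0.956). Evc and Evc2, the genes of Ellis-van Creveld syndrome, encode partners that bind Smoothened and pass the signal on. They lie side by side on opposite strands of chromosome 5 (chr5:37289098-37336894 and chr5:37338499-37425055), 8.82 and 8.87 Mb from Shh. Evc had wild-type values of 36.6 and 32.6 CPM and Shh null values of 41.2 and 33.4 CPM (log2 fold change 0.10, 95% interval −0.20 to 0.40, adjusted p = 0.726). Evc2 had wild-type values of 34.6 and 37.7 CPM and Shh null values of 36.4 and 33.0 CPM (log2 fold change −0.056, 95% interval −0.32 to 0.21, adjusted p = 0.842). The groups overlapped for both genes.

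Ofd1, which encodes a protein of the centriole end and of centriolar satellites, was the X-linked member. It lies at chrX:166390033-166440704 and had wild-type values of 36.5 and 37.4 CPM and Shh null values of 48 and 44.8 CPM. All Shh null values were above all wild-type values, and the means of 36.9 ± 0.668 and 46.4 ± 2.26 CPM (SD, n = 2) gave a log2 fold change of 0.32 ± 0.11 (SE; 95% interval 0.077 to 0.57, limma adjusted p = 0.157). Its exons overlap those of Trappc2 on the opposite strand by 131 bases. Sex-linked transcripts also differed between the groups. Xist, made from the inactive X chromosome, had wild-type values of 225 and 152 CPM and Shh null values of 522 and 468 CPM, while the Y-linked Ddx3y had wild-type values of 119 and 106 CPM and Shh null values of 39.1 and 42.3 CPM. All 5 sex-linked genes examined were called, 1 higher and 4 lower in Shh null. The median log2 fold change of 453 tested X-linked genes was −0.023, with 13 called (2.87%). Sex-linked transcripts thus went along with genotype in these 4 libraries. Sex and genotype cannot be told apart here for Ofd1 or for any other member. The part of sex in the differences was not tested.

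Other genes of the organelle were taken from 7 lists with 91 names. Of the 84 tested, 0 were called, 40 had a positive log2 fold change (47.6%), and the median was −0.012. Both Shh null libraries lay above both wild-type libraries for 17 (20.2%) and below both for 14. These lists include the remaining subunits of the complexes described above. Among 13 tested IFT and BBSome subunits outside the set, 4 were positive and 0 had both Shh null libraries above both wild-type libraries, and the median was −0.13. Arl6, the small GTPase that recruits the BBSome to membranes, had wild-type values of 68.8 and 64.5 CPM and Shh null values of 51.9 and 57.2 CPM (log2 fold change −0.29, 95% interval −0.52 to −0.047, adjusted p = 0.191). Rabl5, which encodes the IFT-B subunit now named Ift22, had wild-type values of 12.9 and 10.9 CPM and Shh null values of 7.67 and 12.4 CPM (log2 fold change −0.25, 95% interval −0.72 to 0.22, adjusted p = 0.562), and the first Shh null library alone was low. The difference between these subunits and the 42 members was not tested.

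**Figure D4:**
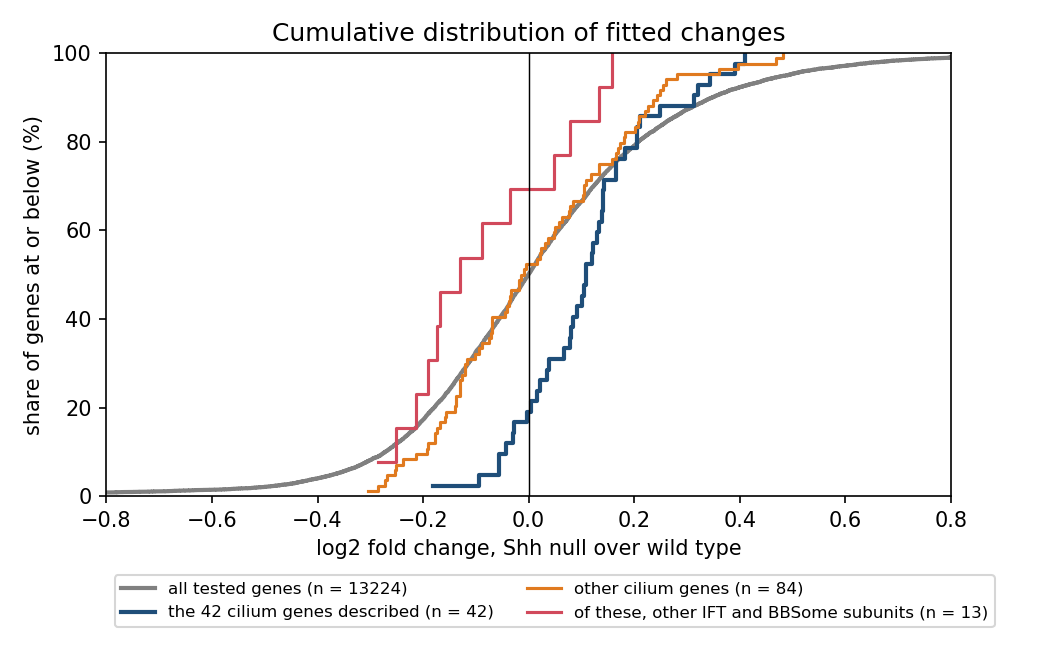
Cumulative share of genes (y axis) at or below a log2 fold change of Shh null over wild type (x axis) for all 13224 tested genes, the 42 cilium genes described, 84 other tested cilium genes and the 13 IFT and BBSome subunits among these, coloured as in the key. At the median the line of the 42 genes lies to the right of that of all genes (0.11 against −0.0005) and that of the 13 subunits to its left (−0.13), while near the upper quartile the line of the 42 genes crosses that of all genes and then lies to its left.

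The remaining lists covered motors, gate, basal body and membrane, with 0 genes called. Of 8 tested other motor subunits, with a median of 0.12, Dynlt1b and Wdr60, dynein light and intermediate chains, had log2 fold changes of 0.40 and 0.36 (adjusted p = 0.25 and 0.305). Of 15 other transition zone genes, with a median of 0.021, Tmem17, a membrane protein of the zone, had the largest value, 0.28 (0.402). Of 20 basal body genes, with a median of 0.020, the largest values were those of Fuz, a planar polarity effector needed for ciliogenesis, at 0.48, and Fbf1 at 0.26 (0.175 and 0.257). Of 14 genes of the EvC zone and ciliary membrane, with a median of 0.11, Adcy6, an adenylyl cyclase, had wild-type values of 67.6 and 86.2 CPM and Shh null values of 118 and 94.7 CPM (log2 fold change 0.47, 95% interval 0.15 to 0.79, adjusted p = 0.127). It was called without wild type 2 (0.64, adjusted p = 0.00261), the library with the higher of the wild-type values, and its log2 fold change was 0.30 without wild type 1 and 0.31 without Shh null 1 (0.352 and 0.598). Efcab7, which tethers the Evc proteins, had a log2 fold change of −0.27 (0.316). Single libraries carried much of several of these values. Without Shh null 1, that of Wdr60 was 0.11, that of Fuz 0.28 and that of Fbf1 0.17, and without wild type 2 that of Tmem17 was 0.097.

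Genes that act in taking the cilium apart before division formed another list. Of 9 tested, 1 was positive and the median was −0.13, with Aurka, the kinase that starts disassembly, at −0.25 and Nek2 at −0.18 (adjusted p = 0.198 and 0.481). Several of these are also genes of mitosis. Markers of proliferation were on the same side, and their part in these values was not tested. Of 8 such markers 0 were called, 8 were negative with a median of −0.23, and the list summed to 6575 and 5990 CPM in wild type and 5412 and 5784 CPM in Shh null. Of 5 tested RFX genes, with a median of 0.10, Rfx7 had wild-type values of 80.1 and 72.3 CPM and Shh null values of 60.5 and 62.4 CPM (log2 fold change −0.30, 95% interval −0.54 to −0.072, adjusted p = 0.158), and Rfx2 had a log2 fold change of 0.24 (0.547). Without wild type 2, the value of Rfx2 was 0.089 and that of Nek2 −0.0039.

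Exon length moved weakly with the genotype difference. Across 5 equal bins of tested genes from the shortest to the longest exons, the median log2 fold change went from −0.032 to 0.022. The members had a median exon length of 5736 bases, near that of the other cilium genes (5388 bases) and above that of all tested genes (4514 bases). In the shortest bin the 6 members had a median of 0.015, with 3 positive. From the second bin to the longest their medians were 0.13, 0.21, 0.10 and 0.13, over 8, 5, 13 and 10 members. Reads of some members may be shared with overlapping genes, since the strand setting of the counting is not given in the sources used here. Besides Tctn1 and Ofd1, exons of Ift57, Ift88, Bbs4, Bbs12 and Tmem67 overlap those of another annotated gene.

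The authors' deposited table covers the same comparison. Of the 42 members, 0 had a false discovery rate under 0.05 in the authors' deposited table, where 4.01% of its 17712 genes did, and 35 had a positive log2 fold change. In the authors' deposited table the lowest false discovery rate of a member was 0.108, for Ift172 at a log2 fold change of 0.41, followed by Kifap3 (0.35, false discovery rate 0.124) and Ift140 (0.32, 0.182). These values come from the same 4 libraries and add no replicate.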

How the data were processed

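RNA was sequenced from mouse forelimbs, 2 libraries per genotype. The deposited signal values are reads divided by a TMM-scaled library size (CPM), made by the authors, and each is a whole multiple of the value of 1 read (100% of values within 0.001 reads), so reads were recovered. Per the submitters' processing notes, TopHat2 2.0.9, SAMtools, HTSeq 0.5.4p5, edgeR 3.4.2 and mm10 were used; the sources used here name neither the annotation nor the strand setting. A table deposited by the authors gives log2 fold changes, log2 mean levels, and p-values with false discovery rates.

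Genes reaching 1 CPM in 2 libraries (13224 of 17712) were tested with limma 3.58.1 (R 4.3.3) on log2(CPM + 1), with no covariate and Benjamini-Hochberg adjustment, calling an adjusted p under 0.05. On recovered reads, edgeR 4.0.16 called 324 genes and DESeq2 1.42.0 called 526. The limma script was tested on simulated data. Levels per kilobase used GENCODE M21 exon unions (GRCm38), which need not be the authors' annotation. Promoters came from RefSeq (GRCm38.p6). Alternatives covered the pseudocount, filter, scaling, test, replicate block and each library left out. All members are named, and of each other list the 2 genes with the largest fitted difference, since none was called; 1 gene that this rule names is not reported here. The members and lists were chosen with earlier results of these data known.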

Additional observations from a re-analysis of the deposited data

How the results depend on the processing

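With 2 libraries a group, which may be technical replicates, the median 95% interval of a member reached 0.27 either side on the log2 scale. This width is not the limit for a call after adjustment. Members with larger differences, up to 0.41 for Ift172, were not called with all 4 libraries, so real differences of that size can be missed. Over all genes, the 328 calls became 170 with no filter on low values, 526 with DESeq2 on recovered reads and between 56 and 802 with 1 library left out. A library left alone in its group was assumed to vary like the other group. The number of members called was 0 with all 4 libraries under each other pseudocount, filter, scaling and test tried and between 0 and 1 with 1 left out (Ift172 without wild type 2). The members' median lay between 0.091 and 0.14 with 1 library left out and was largest without Shh null 2. Replicate numbers did not pair the libraries (correlation of deviations −0.203), and the replicate block gave 396 calls over all genes, 0 members called and a member median of 0.11. Crossing the numbers in the block, an alternative chosen after seeing the data, gave 1386 calls over all genes and 3 among the members. Of 588 member values over 14 alternatives, 557 kept their direction and side of the threshold. Signs reversed for Dync2h1 with median-ratio scaling (−0.0057), for Mks1 (−0.011) and B9d1 (−0.0066) with quantile normalization, and for B9d2 with edgeR (0.011). With 1 library left out, signs reversed for 15 genes, of which Rabl5 is not a member. Their ranges were −0.023 to 0.033 for Dync2h1, −0.13 to 0.078 for Bbs12, −0.016 to 0.060 for Tmem67, −0.026 to 0.094 for Ift20, −0.14 to 0.027 for Kif3b, −0.20 to 0.12 for Tctn2, −0.12 to 0.25 for B9d1, −0.25 to 0.24 for B9d2, −0.029 to 0.062 for Arl13b, −0.12 to 0.012 for Evc2, −0.045 to 0.25 for Evc, −0.13 to 0.067 for Ift27, −0.014 to 0.18 for Ift81, −0.047 to 0.13 for Bbs4 and −0.57 to 0.064 for Rabl5. The cause was not tested.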

Other observations

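Motile-cilium genes were near the floor apart from a few. Ccdc39, which encodes a ruler protein of motile axonemes, was measured at 8.11 and 6.94 CPM in wild type and 12.4 and 9.70 CPM in Shh null, without overlap (log2 fold change 0.49, limma adjusted p = 0.166). Tekt1, a tektin of axonemal microtubules, was measured at 6.84 and 8.15 CPM in wild type and 6.55 and 7.09 CPM in Shh null, with overlap (−0.12, adjusted p = 0.751). Foxj1, the transcription factor of motile ciliogenesis, did not exceed 1.16 CPM in any library. Ccdc39 and Tekt1 were singled out after their values were seen, as the 2 genes of this list that passed the filter.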
